A study of Homo sapiens with 6 samples.

Results

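The genes described here were 10 human genes of the unfolded protein response: HSPA5, HSP90B1, PDIA4, DNAJB9, SDF2L1, CRELD2, HERPUD1, XBP1, ATF4 and DDIT3. They were chosen by name, as every row of the count table whose annotated gene was 1 of them, and they held 31 of the table's 21472 transcript models and 10 of its 10072 genes. Of these 31 models, 27 were annotated and 4 were assembled from the reads. The table came from Calu-6, a human non-small cell lung cancer line, with 3 libraries transfected with a non-silencing siRNA (siControl) and 3 with siDelta2-4, an siRNA spanning the join of exon 1 to exon 5, which marks the Delta 2-4 form of TERT, the reverse transcriptase of telomerase. Both siRNAs were used at 10 nM for 48 h, and the 6 barcoded cDNA libraries shared 1 Oxford Nanopore flow cell run for 72 h. GEO's labels give the genotype of all 6 as WT, while the count columns carry the word Empty and the study's methods describe a stably selected Calu-6 population with an empty Flag-V5 vector. All libraries therefore came from a single cell line and a single targeting siRNA. The study calls the libraries of a group biological replicates, while the labels do not say whether they were separate cultures. Every p-value measures the spread between these libraries, and how much of it is technical is not known here. Libraries are numbered as in the count columns.

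The unfolded protein response is the set of pathways by which a cell adjusts to unfolded protein in the endoplasmic reticulum (ER). The ER membrane holds its sensors: IRE1 splices the XBP1 mRNA, PERK phosphorylates eIF2α and so favours translation of ATF4, and ATF6 is cut in the Golgi to release a transcription factor. XBP1 and ATF6 act on promoters of ER chaperone and degradation genes through the ER stress response element, whereas ATF4 acts on amino acid metabolism genes and on DDIT3, which encodes the pro-apoptotic factor CHOP. Unstressed cells use the same chaperones for ordinary protein folding.

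The ER stress response element, read as CCAAT, 9 bases and CCACG, is shown here because it links the chaperones of the group to their known regulators. RefSeq promoter windows (build GRCh38.p14, 250 bases before to 50 bases after each start) were found for all 10 genes and searched on both strands. Only exact matches were counted, so copies that differ from the stated letters were missed. The HSPA5 stretch below covers chr9:125241383-125241593 on the minus strand, from 250 to 40 bases before the RefSeq start, with the element in capitals. It ends just upstream of the gene's Gencode start, which lies before the RefSeq one.
HSPA5 promoter: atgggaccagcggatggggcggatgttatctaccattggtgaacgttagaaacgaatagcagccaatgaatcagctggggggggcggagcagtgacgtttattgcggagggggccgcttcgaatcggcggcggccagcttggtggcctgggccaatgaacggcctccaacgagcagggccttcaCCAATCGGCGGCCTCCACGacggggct
The element stood 66 to 48 bases before the HSPA5 start. HSP90B1 held 2 copies, at 194 to 176 and, on the opposite strand, 89 to 71 bases before the start. XBP1 held 1 copy at 52 to 34 bases before the start, and CRELD2 held 1 on the opposite strand at 80 to 62. The second form of the element, ATTGG, 1 base and CCACG, stood in HERPUD1 117 to 107 bases before the start and in SDF2L1, on the opposite strand, 188 to 178 bases before it. These matches follow as they read on the strand of the gene, with the match in capitals and 3 bases on each side.
HSPA5: tcaCCAATCGGCGGCCTCCACGacg
HSP90B1, far copy: tgaCCAATCGGAAGGAGCCACGctt
HSP90B1, near copy: gtgCGTGGTGCGGCGCGATTGGtgg
XBP1: tggCCAATCGCGGAGGGCCACGacc
CRELD2: tctCGTGGCGAACTCGGATTGGgcc
HERPUD1: ccgATTGGGCCACGttg
SDF2L1: aagCGTGGACCAATcaa
Either form lay before the start in 6 of the 10 genes and in 43 of 27305 genes with a RefSeq window, or 0.157% of them. DNAJB9, PDIA4, ATF4 and DDIT3 held neither form in this window. No window of the 10 genes held the unfolded protein response element TGACGTGG, which 0.780% of all genes held, the cAMP response element TGACGTCA, held by 2.03%, or the C/EBP-ATF response element, TGATG, 1 base and AAT, held by 1.09%. A match describes letters in a window and is not evidence of binding.

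The libraries held 1037468 to 1309241 counts, where a count is 1 long read assigned to a transcript model. No row named TERT, so the level of the siRNA's target was not checked here. Of the markers listed for the carcinoma line, KRT8, KRT18 and VIM, which is not specific to carcinoma, were well covered (114 to 231 counts in every library). KRT7 held 3 to 11 counts and EPCAM 1 to 3 in each library, KRT19 had 1 count and CDH1 no row. The 7 markers together held 437, 437 and 438 counts in the siControl libraries and 501, 617 and 560 in siDelta2-4, whose part in the results was not tested. The markers of immune cells summed to 2 to 5 counts a library and those of fibroblasts to 1 to 5, while none of the 3 endothelial markers had a row. The library siControl 3 stood apart from its group: on the leading principal component, which held 42.9% of the variance, it lay at -0.36, with the other two siControl libraries at -16.88 and -15.2 and siDelta2-4 at 8.71 to 13.8. Longer transcripts also ran lower in siControl 1 and 2 than elsewhere: the rank correlation, across genes, of transcript length with a gene's deviation from its mean was -0.318 and -0.326 in those libraries, 0.123 in siControl 3 and 0.137 to 0.362 in siDelta2-4. Where leaving out siControl 3 or removing the length trend changed a call among the 10 genes or a called gene of the lists, that value is given below or in the closing section. In whole-culture RNA, fewer cells and less RNA per cell cannot be told apart.

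Of the 10 genes, HSPA5 rose after siDelta2-4 by 2.21-fold, and no other of them passed the test. Of the other tested members, HSP90B1 had a log2 fold change (log2FC) of 0.93 with an adjusted p of 0.133, and PDIA4, ATF4 and DDIT3 had log2FC of 0.07 to 0.25. DNAJB9, SDF2L1, CRELD2, HERPUD1 and XBP1 had too few reads for the test. The filter asked for about 10 counts, or 9.16 CPM (counts scaled to 1000000 a library), in at least 3 libraries. HSPA5, ATF4 and DDIT3 reached this limit in 6 of 6 libraries, PDIA4 in 2 libraries of each group, and HSP90B1 in 3 siDelta2-4 libraries and, of siControl, in siControl 3 alone. The 1 call among 5 tested genes stands beside 504 calls among all 3888 tested genes (13.0%; 7.00% higher and 5.97% lower in siDelta2-4) in edgeR's quasi-likelihood test at a Benjamini-Hochberg adjusted p under 0.1. All 5 tested members had a log2FC above 0, with a median of 0.25, against 53.9% above 0 and a median of 0.027 for all tested genes. HSP90B1 passed the filter mainly through siDelta2-4, the group in which it is high, so this count and median are partly fixed by the filter. PDIA4 and ATF4 changed sign under other settings. The 10 genes together summed to 145, 126 and 171 CPM in siControl and to 163, 223 and 182 CPM in siDelta2-4, so the summed levels overlapped.

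**Figure D1:**
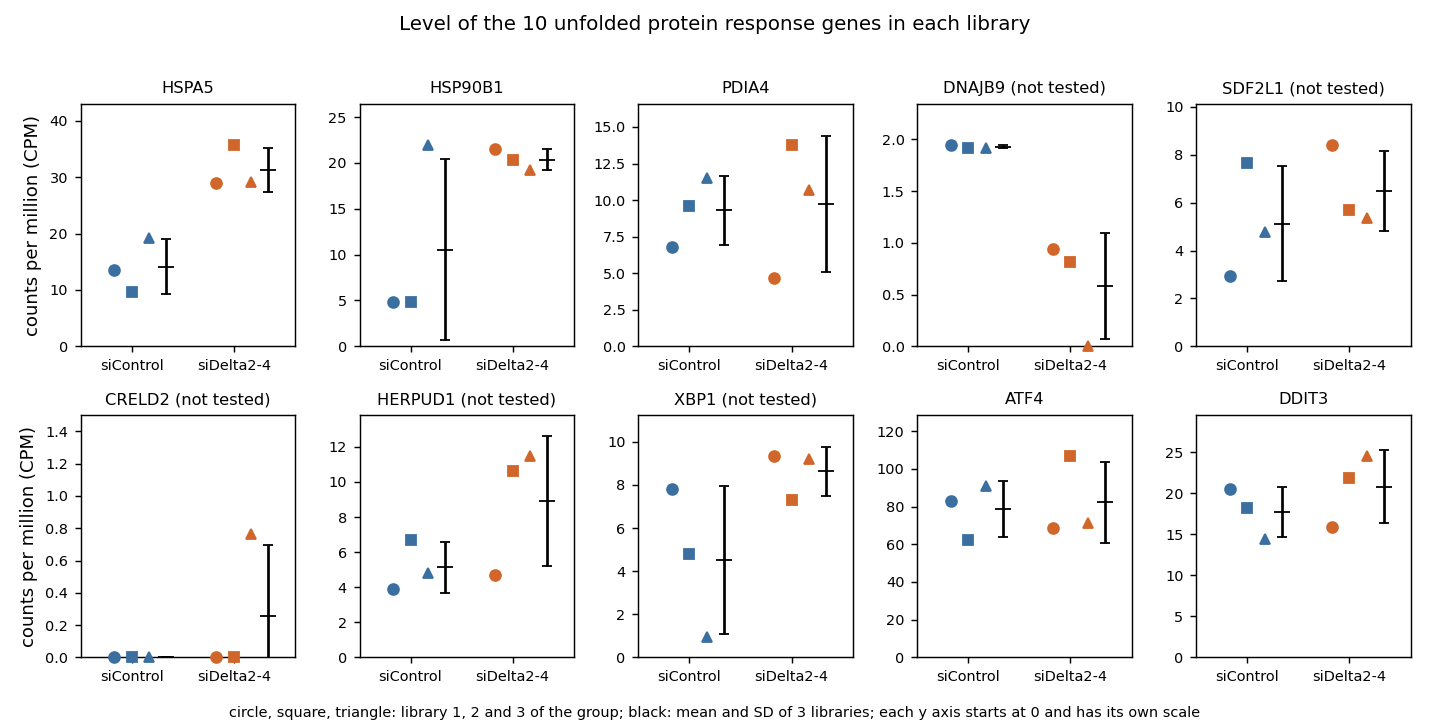
CPM of each of the 10 genes (y axis, starting at 0, own scale per panel) in the 3 siControl libraries (blue) and the 3 siDelta2-4 libraries (orange), with the mean and SD of each group in black. HSPA5 is the only tested gene whose groups do not overlap, and siControl 3 (triangle) lies at the siDelta2-4 level for HSP90B1 and lowest of all libraries for XBP1.

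HSPA5 (chr9:125234853-125241382, minus strand) encodes BiP, the ER Hsp70 chaperone that also holds the stress sensors inactive. Its level was 13.6, 9.59 and 19.2 CPM in siControl and 29.0, 35.8 and 29.2 CPM in siDelta2-4, from 14, 10 and 20 counts against 31, 44 and 38. Every siDelta2-4 library lay above every siControl library, as did 14.1% of all tested genes (11.9% lay below), and siControl 3 was the highest of its group. The mean was 14.1 ± 4.80 CPM in siControl and 31.3 ± 3.84 CPM in siDelta2-4 (SD, n = 3). The log2FC was 1.14 ± 0.27 (SE; 95% interval 0.59 to 1.69), at an adjusted p of 0.008 by edgeR. The call held in each of the 6 fits that left out a library, with log2FC values of 0.92 to 1.40 and a highest adjusted p of 0.0762, and with the length trend removed, where the log2FC was 0.97 (adjusted p = 0.0237).

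The counts of HSPA5 were on long models. HSPA5-201, the annotated mRNA of 8 exons and 3921 bases, held 90.4% of its counts, with 10, 8 and 19 counts in the siControl libraries and 29, 42 and 34 in siDelta2-4. On this model alone the log2FC was 1.31 ± 0.29 (SE) with an adjusted p of 0.00926 in edgeR's test over single models, and it was the only 1 of 4 tested member models to be called, beside 468 of 6768 models in the table (6.91%). The other two HSPA5 models, HSPA5-212 and HSPA5-205, held 11 and 4 counts.

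HSP90B1 (chr12:103930107-103953931, plus strand) encodes GRP94, the HSP90 chaperone of the ER. It had 4.87, 4.79 and 22.0 CPM in siControl and 21.5, 20.3 and 19.2 CPM in siDelta2-4. The siDelta2-4 libraries lay close together, whereas siControl split into a pair near 5 CPM and siControl 3, which was the highest of all 6 libraries. The log2FC was 0.93 ± 0.38 (SE; 95% interval 0.15 to 1.71; adjusted p = 0.133 by edgeR), and without siControl 3 it was 2.02 with an adjusted p of 0.000213. In that fit HSP90B1 passed the filter through siDelta2-4 alone, the group in which it is high, so this call is partly fixed by the filter. There 2 of 7 tested members, HSPA5 and HSP90B1, were called, beside 1041 of 4098 genes (25.4%). With no filter on low counts the HSP90B1 call also passed, at an adjusted p of 0.0888. That fit still included an unannotated model with 30.2% of the HSP90B1 counts. Every unannotated model of the table had at least 5 counts in each siDelta2-4 library, a level this one missed in siControl 1 and siControl 2. This call is thus also partly fixed by which models were kept. With annotated models alone the log2FC was 0.90 and HSP90B1 was not called (adjusted p = 0.242 by edgeR).

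Single libraries also differed in which HSP90B1 models they held. In classes chosen after the values were seen, and so with no test, the 5 models of 16 or more exons held 0, 1 and 15 counts in the siControl libraries and 9, 13 and 10 in siDelta2-4. The 4 models of 7 or fewer exons held 5, 4 and 8 counts in the siControl libraries and 14, 12 and 15 in siDelta2-4. Counts on the HSP90B1 models of 16 or more exons were thus almost missing from siControl 1 and 2 alone. In this same pair longer transcripts of the whole table ran low. Whether this accounts for the HSP90B1 difference was not tested. The model with the most counts, 30.2% of them, was an unannotated model of 5 exons and 789 bases that TALON marked as a 3′ part of a known transcript. HSP90B1-201, the annotated mRNA of 18 exons and 2782 bases, followed with 20.8%, and HSP90B1-211 and HSP90B1-224 held 19.8% and 13.2%. UQCC6 overlaps HSP90B1 by 13169 bases on the opposite strand and held 34, 43 and 32 counts against 36, 59 and 73 (log2FC 0.40 ± 0.21 SE, adjusted p = 0.239 by edgeR). Whether counting used strand is not given in the sources used here, so reads of overlapping partners could have been shared.

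**Figure D2:**
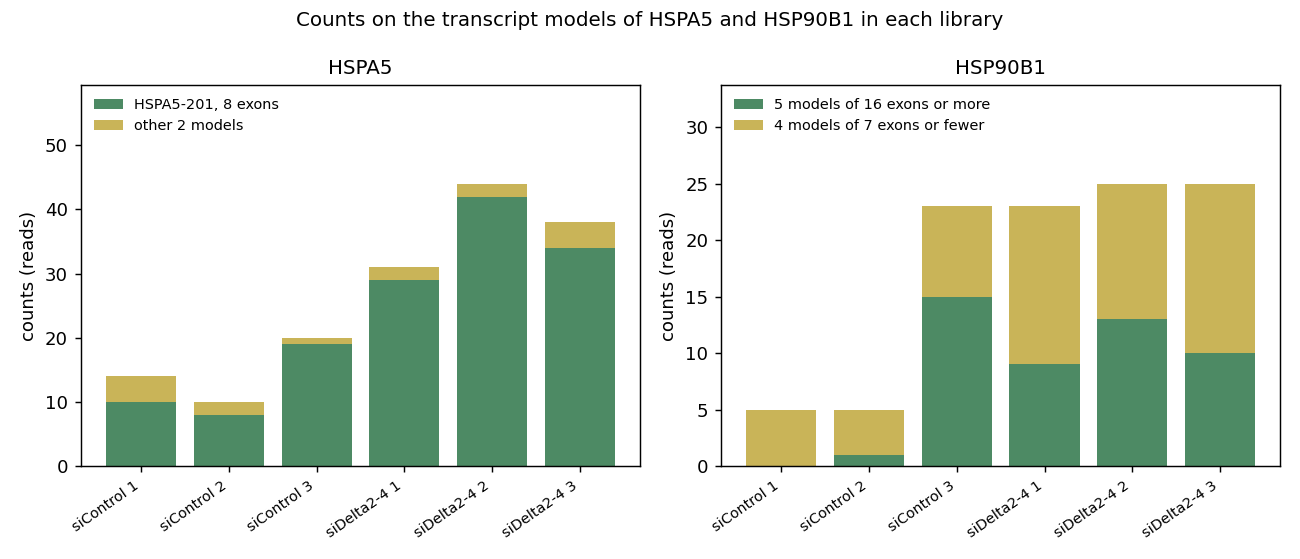
Counts (reads, y axis from 0) on the transcript models of HSPA5 and HSP90B1 in each library, with the model classes stacked. HSPA5-201 makes up most HSPA5 counts in every library, while HSP90B1 models of 16 or more exons have 0 and 1 counts in siControl 1 and 2 and 9 to 15 in the other 4 libraries.

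PDIA4 (chr7:149003062-149028662, minus strand), a protein disulfide isomerase of the ER, had 6.82, 9.59 and 11.5 CPM in siControl and 4.68, 13.8 and 10.7 CPM in siDelta2-4. Its lowest and its highest value were both in siDelta2-4, and the groups overlapped. The log2FC was 0.10 ± 0.38 (SE; 95% interval -0.69 to 0.88; adjusted p = 0.916 by edgeR), so the interval spans both a fall and a rise, and the sign turned with the length trend removed (-0.08). PDIA4-204, of 10 exons, held 87.7% of its counts and had a log2FC of 0.27 (adjusted p = 0.80).

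Of the chaperone genes with too few reads, SDF2L1 (chr22:21642302-21644299, plus strand), a partner of ER Hsp40 proteins, held 3, 8 and 5 counts in the siControl libraries and 9, 7 and 7 in siDelta2-4. The groups overlapped, and the ratio of the groups' summed counts relative to their library totals, siDelta2-4 over siControl, was 1.30 with an exact 95% interval of 0.657 to 2.63. This interval, like those of the other untested genes, covers counting error only. DNAJB9 (chr7:108569867-108574850, plus strand), the ER Hsp40 ERdj4, held 2 counts in each siControl library and 1, 1 and 0 in siDelta2-4. The groups did not overlap, but the ratio of 0.301 had an interval of 0.0297 to 1.69, so a difference was not detectable at this depth. CRELD2 (chr22:49918167-49927540, plus strand), an ER-resident EGF-domain protein, had a single count, in siDelta2-4 3, on CRELD2-210, an annotated model of 2 exons. Its 0 of 3221436 siControl counts allow a level of up to 0.931 CPM, and its ratio had a lower bound of 0.0232 and no upper bound. Every model of the table had at least 1 siDelta2-4 count, while 4526 had 0 in siControl, so a gene with a single count could be listed only through siDelta2-4, and the direction of CRELD2 says nothing.

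HERPUD1 (chr16:56932142-56944864, plus strand) encodes HERP, an ER membrane protein of ER-associated degradation. It held 4, 7 and 5 counts in the siControl libraries and 5, 13 and 15 in siDelta2-4, or 3.90, 6.71 and 4.79 against 4.68, 10.6 and 11.5 CPM. In 2 siDelta2-4 libraries the level was above all of siControl, and in siDelta2-4 1 it was within the siControl range. The ratio of summed counts was 1.86, with a counting interval of 0.998 to 3.63. Some of its models had counts in siDelta2-4 alone, while the table lists no model with counts in siControl alone. The ratio and its interval are therefore partly fixed by which models were kept. HERPUD1-204, of 8 exons, held 71.4% of the counts, and the 2-exon model HERPUD1-216 held 20.4%.

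XBP1 (chr22:28794555-28800597, minus strand) encodes the transcription factor that IRE1 activates by splicing. It held 8, 5 and 1 counts in the siControl libraries and 10, 9 and 12 in siDelta2-4, or 7.80, 4.79 and 0.958 against 9.36, 7.31 and 9.21 CPM. The groups overlapped, since siControl 1 lay above siDelta2-4 2. The ratio of summed counts was 2.00 (counting interval 1.03 to 4.07), and with no filter on low counts the adjusted p by edgeR was 0.408. An unannotated model held 80.0% of the XBP1 counts. Every unannotated model of the table had at least 5 counts in each siDelta2-4 library, a level this one missed in siControl 2 and siControl 3. The ratio, its interval and the adjusted p are therefore partly fixed by which models were kept. In siControl 3, the library in which HSP90B1 was highest, XBP1 was lowest.

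The 26 bases that IRE1 removes from XBP1 lie at chr22:28796128-28796153 on the minus strand, as annotated in Gencode 44 by the difference between XBP1-201 and XBP1-202. They are shown in capitals because their removal is the direct mark of IRE1 activity.
XBP1 intron: ccGCAGCACTCAGACTACGTGCACCTCTgc
Of the 45 XBP1 counts, 8 were on XBP1-206, a model of 2 exons, and 1 was on XBP1-204, of 5 exons, both of which keep these bases. The other 36 (80.0%) were on an unannotated model of 1 exon and 1176 bases, whose position the table does not give. Its length is close to the 1178 bases of the last exon of XBP1-201, which does not hold the intron. No counted model with known exons had the intron spliced out, and the share of spliced XBP1 could not be measured from these counts.

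ATF4 (chr22:39519695-39522683, plus strand) encodes the transcription factor of the integrated stress response. It was the best covered of the 10 genes, at 82.9, 62.3 and 91.0 CPM in siControl and 68.4, 107 and 71.4 CPM in siDelta2-4. The groups overlapped widely, with means of 78.7 ± 14.8 and 82.3 ± 21.6 CPM (SD, n = 3). The log2FC was 0.07 ± 0.17 (SE; 95% interval -0.29 to 0.42; adjusted p = 0.857 by edgeR), so the interval's upper bound lay below the HSPA5 estimate. Its sign turned with the length trend removed (-0.09) and with annotated models alone (-0.01). ATF4 is controlled mainly at translation, which RNA counts do not read. ATF4-206, of 3 exons, held 87.7% of its counts.

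DDIT3 (chr12:57516588-57521737, minus strand) had 20.5, 18.2 and 14.4 CPM in siControl and 15.9, 21.9 and 24.6 CPM in siDelta2-4. The groups overlapped, and the log2FC was 0.25 ± 0.27 (SE; 95% interval -0.31 to 0.81; adjusted p = 0.629 by edgeR). All 131 counts were on 1 unannotated model of 4 exons and 909 bases, marked as a new combination of known splice junctions. Each of the table's 6398 unannotated models had at least 5 counts in every siDelta2-4 library, and 5173 of them also in every siControl library, so such models were kept through siDelta2-4. DDIT3 had no annotated model in the table and so no value with annotated models alone. MARS1, which overlaps it by 982 bases on the opposite strand, held 3, 10 and 3 counts in the siControl libraries and 3, 8 and 5 in siDelta2-4.

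**Figure D3:**
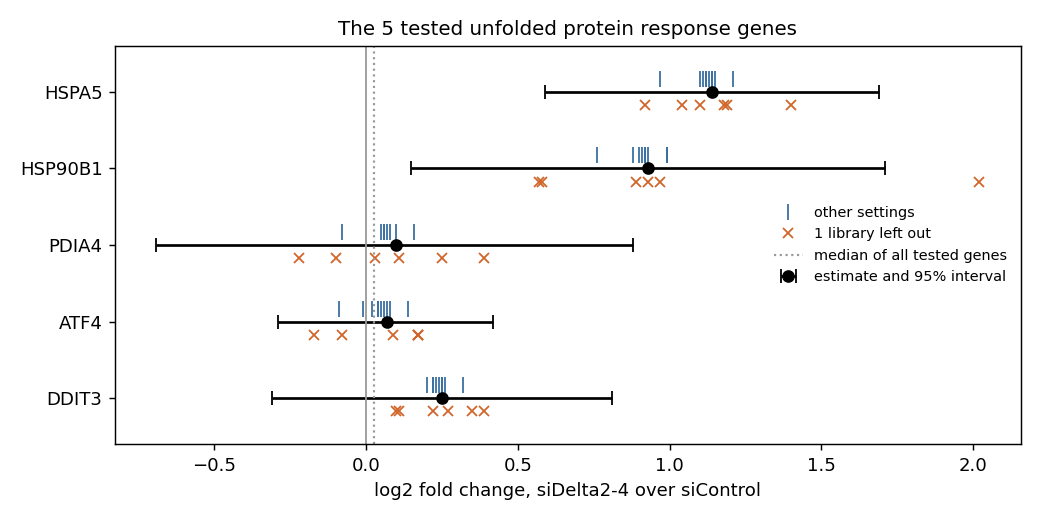
Log2 fold change, siDelta2-4 over siControl, of the 5 tested genes with the 95% interval (black), the values under other settings (blue ticks) and with 1 library left out (orange crosses), and the median of all tested genes (dotted, 0.027). HSPA5 stays between 0.92 and 1.40 throughout, HSP90B1 ranges from 0.57 to 2.02 with the highest value without siControl 3, and PDIA4 and ATF4 fall on both sides of 0.

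Levels of different genes were compared as CPM per kilobase of the counted models' mean length. The order was ATF4 (57.5 ± 11.9, SD over 6 libraries), DDIT3 (21.2 ± 4.20), HSP90B1 (8.24 ± 4.42), SDF2L1 (7.04 ± 2.42), HSPA5 (5.86 ± 2.63), XBP1 (4.82 ± 2.35), PDIA4 (3.60 ± 1.25), HERPUD1 (3.10 ± 1.44), DNAJB9 (0.521 ± 0.334) and CRELD2 (0.0488 ± 0.119). Between neighbours in this order the 6-library ranges were separate for ATF4 over DDIT3, DDIT3 over HSP90B1 and HERPUD1 over DNAJB9, and overlapped for the others. Each long read stands for 1 cDNA whatever its length, so dividing by length lowers the place of genes with long models. On CPM alone, without that division, HSPA5 ranked 2 and SDF2L1 8. On both scales ATF4 was highest, and DNAJB9 and CRELD2 were lowest. XBP1, ATF4, SDF2L1 and CRELD2, 4 of the 10 genes, lie on chromosome 22.

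The genes whose log2 CPM followed HSPA5 most closely over the 6 libraries, as a description, were the unannotated locus TALONG000080773 (Pearson r = 0.9975), ZNF207 (0.9938) and CD99 (0.9938). Their log2FC values were 0.32, 0.54 and 0.50, with adjusted p of 0.348, 0.284 and 0.414 by edgeR. The 10 genes and the other response genes listed below were left out of this ranking. It therefore does not show how closely they followed HSPA5.

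The other genes of the response were taken from 4 lists of 129 genes, of which 87 had a row and 40 were tested. Of these 40, 5 were higher and 4 lower in siDelta2-4, beside 7.00% and 5.97% of all tested genes, and 8 and 5 had groups that did not overlap, beside 14.1% and 11.9%. Of the sensors and their processing, 6 of 11 genes had a row and 2 were tested, with none called. RTCB, the ligase that rejoins the cut XBP1 mRNA, had a log2FC of 0.04 (adjusted p = 0.969) and EIF2S1, the eIF2α subunit, of 0.20 (adjusted p = 0.593). ATF6 held 9 counts and ATF6B 2 over all libraries.

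The list of ER chaperones and folding enzymes had 4 genes higher and 1 lower among 24 tested of 46, beside 7.00% and 5.97% of all tested genes. This list also holds translocon genes, SERP1 and SSR2 among them, so its counts are not of chaperones alone. Of the 24, 18 had a log2FC above 0, with a median of 0.20, beside 53.9% and 0.027 for all tested genes. In 7 of the 24 every siDelta2-4 library was above every siControl library, and in 1 below, beside 14.1% and 11.9% of all tested genes. SERP1, a stabiliser of membrane proteins at the translocon, had 32.2, 32.6 and 60.3 CPM in siControl and 68.4, 80.4 and 68.3 CPM in siDelta2-4 (log2FC 0.79 ± 0.20 SE, adjusted p = 0.013). As for HSP90B1, siControl 3 was the highest of its group, though here below every siDelta2-4 library. MESD, a chaperone of LDL receptor family proteins, had 22.4, 21.1 and 19.2 CPM in siControl and 36.5, 39.0 and 29.2 CPM in siDelta2-4 (0.73 ± 0.23, adjusted p = 0.0464, and 0.56 with 0.124 once the length trend was removed). SIL1, the nucleotide exchange factor of BiP, had 41.9, 40.3 and 41.2 CPM in siControl and 62.7, 69.9 and 56.8 CPM in siDelta2-4 (0.62 ± 0.17, adjusted p = 0.027). HSPA5 and its cofactor SIL1 were thus both called higher. In the same list DNAJB11, an ER Hsp40 like DNAJB9, had a log2FC of 0.30 (adjusted p = 0.587 by edgeR) and was not called. MANF was not called either (0.54, adjusted p = 0.281 by edgeR), and DNAJB9 and SDF2L1 were not tested. SERP1 and SIL1 had too few counts on annotated models to be tested on those alone. Their calls therefore rest in part on unannotated models, which were kept through siDelta2-4.

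SSR2, a subunit of the translocon-associated complex, had 189, 171 and 225 CPM in siControl and 265, 262 and 263 CPM in siDelta2-4 (0.43 ± 0.11, adjusted p = 0.0146). FKBP2, an ER peptidyl-prolyl isomerase, was the gene that fell, from 735, 724 and 658 to 585, 588 and 612 CPM (-0.25 ± 0.08, adjusted p = 0.0724), but the call was lost with the length trend removed (-0.18, adjusted p = 0.122) and with annotated models alone (-0.08, adjusted p = 0.744). The best covered genes that were not called were PPIB, a cyclophilin of the ER, with a log2FC of 0.19 (adjusted p = 0.170), and SSR4, with 0.05 (adjusted p = 0.799). Genes that overlap SSR2, SERP1 and FKBP2 also had counts. ENSG00000285677, a long noncoding gene that overlaps SSR2 by 11904 bases on the opposite strand, had a log2FC of 0.34 ± 0.12 (adjusted p = 0.0937). EIF2A, which overlaps SERP1 by 39339 bases on the opposite strand, held 1, 1 and 11 counts in the siControl libraries and 6, 8 and 10 in siDelta2-4. SELENOT, which overlaps SERP1 by 354 bases on the opposite strand, had a log2FC of 0.46 ± 0.18 (adjusted p = 0.126). ENSG00000286264, a coding gene that overlaps FKBP2 by 3038 bases on the same strand, held 0, 5 and 6 counts in siControl libraries against 8, 3 and 8. The share of reads exchanged between these partners was not tested.

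Of ER-associated degradation genes, 18 of 27 had a row and 6 were tested, with a median log2FC of -0.01 and SELENOS as the only call. SELENOS, a selenoprotein of the ER membrane that recruits the ATPase VCP, had 10.7, 7.67 and 12.5 CPM in siControl and 29.0, 26.8 and 34.5 CPM in siDelta2-4 (log2FC 1.55 ± 0.28 SE, adjusted p = 0.000911 by edgeR). It passed in each of the 6 fits without a library, as HSPA5 did. SELENOK had a log2FC of -0.16 (adjusted p = 0.497) and UFD1 of 0.10 (adjusted p = 0.860).

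The ATF4 and integrated stress response targets had 0 genes higher and 3 lower among 8 tested of 45, beside 7.00% and 5.97% of all tested genes. The median log2FC of these 8 was -0.43, beside 0.027 for all tested genes. The 3 genes called lower serve amino acid uptake, serine metabolism and translation, but the tested genes of serine metabolism went both ways. PHGDH had a log2FC of -0.68 (adjusted p = 0.105 by edgeR) and PSAT1 of 0.45 (adjusted p = 0.319 by edgeR). SLC3A2, the heavy chain of amino acid transporters, had 10.7, 11.5 and 9.58 CPM in siControl and 6.55, 4.88 and 3.84 CPM in siDelta2-4 (-1.07 ± 0.39, adjusted p = 0.0883). It passed the filter through its 3 siControl libraries alone, so its call, and its place among the 3 lower genes, are partly fixed by the filter. SHMT2, the mitochondrial serine hydroxymethyltransferase, had 45.8, 55.6 and 38.3 CPM in siControl and 24.3, 33.3 and 29.9 CPM in siDelta2-4 (-0.66 ± 0.21, adjusted p = 0.044). EIF4EBP1, a repressor of cap-dependent translation, had 66.3, 64.2 and 62.3 CPM in siControl and 46.8, 53.6 and 38.4 CPM in siDelta2-4 (-0.48 ± 0.17, adjusted p = 0.0868), a call lost with the length trend removed (-0.43, adjusted p = 0.11) and with DESeq2 (-0.50, adjusted p = 0.153). MTHFD2, the mitochondrial folate enzyme, had a log2FC of 0.56 (adjusted p = 0.164), and SARS1, a tRNA synthetase, of 0.01 (adjusted p = 0.981). CHAC1, an ATF4 and CHOP target, was not tested, with 9, 7 and 10 counts in the siControl libraries and 2, 10 and 2 in siDelta2-4.

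**Figure D4:**
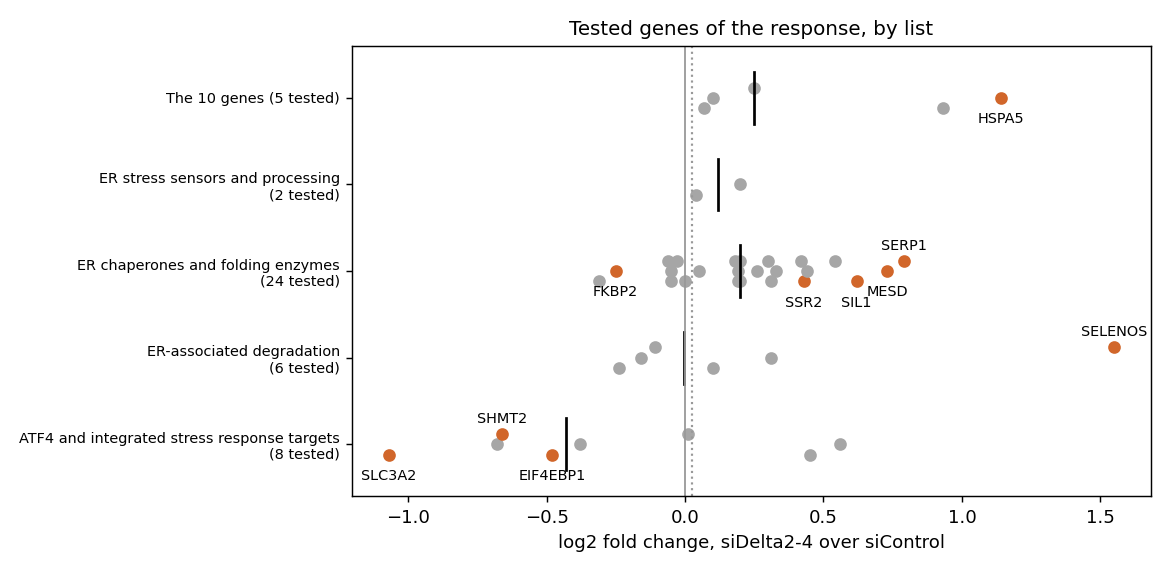
Log2 fold change, siDelta2-4 over siControl (x axis), of the tested genes of the 10 and of each list, 1 point a gene, named and in orange where the adjusted p was under 0.1, the median of each row as a black bar and the median of all tested genes dotted. The row of ER chaperones and folding enzymes, which also holds translocon genes, has 18 of 24 points above 0, beside 53.9% of all tested genes. The 3 calls of the ATF4 target row lie below 0, beside 5.97% of all tested genes called lower.

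Of the 43 genes with either form of the ER stress response element before the start, 23 had a row and 8 were tested. HSPA5 and HSP90B1 had the highest log2FC values of the 8, but HSP90B1 was not called (adjusted p = 0.133 by edgeR) and its groups overlapped. HSP90B1 passed the filter mainly through siDelta2-4, so its place here is partly fixed by the filter. The 6 that were not among the 10 genes ranged from -0.29 (RAD9A) to 0.79 (SERP1), with a median of 0.21, and 4 of them were above 0. SERP1 was the only called gene among these 6. Of the other 8 called list genes, FKBP2, MESD, SELENOS, SIL1, SLC3A2 and SSR2 had a RefSeq window and none of them held any of the searched motifs.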

How the data were processed

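RNA from 6 Calu-6 libraries was read as full-length cDNA on a MinION Mk1c. The authors aligned reads to GRCh38.p14 with minimap2 (2.14) and SAMtools (1.13), corrected them, and assigned them with TALON to Gencode 44, keeping unannotated models past a read minimum. The deposited counts are raw reads per transcript model, 1037468 to 1309241 a library, so a gene near 10 counts is measured coarsely. Columns were matched to groups by the siRNA in their names, not to barcodes.

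Counts were summed per gene (8168 of 8168 annotated genes matched Gencode 44). Genes passing filterByExpr were tested two-sided with edgeR's quasi-likelihood test (4.0.16, R 4.3.3), TMM scaling, and Benjamini-Hochberg adjustment over all 3888 tested genes, called at an adjusted p under 0.1; CPM use the TMM-scaled totals. The test was checked on simulated counts. Alternatives were DESeq2 (1.42.0), other scalings and filters, a threshold of 0.05, a loess length trend removed (span 0.4), annotated models alone, a replicate block and each library left out. Named were all 10 genes, every called list gene, the 2 best covered uncalled genes a list and models with at least 10% of a gene's counts. The 3 genes most like HSPA5 outside the 10 and the lists were also named. CHAC1, ATF6, ATF6B, RAD9A, PHGDH, PSAT1, DNAJB11, MANF and the overlapping genes were named after their values were seen. The genes and lists were chosen with earlier results of these data known. Untested genes have exact intervals on summed counts, for counting error only.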

Additional observations from a re-analysis of the deposited data

How the results depend on the processing

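HSPA5 was called in each fit that gave it an adjusted p, at log2FC values of 0.92 to 1.40. DESeq2's independent filtering gave 4 of the 5 tested members, HSPA5 among them, no adjusted p, so that test yielded no count for the members; without independent filtering, an alternative chosen after seeing the data, HSPA5 passed at 0.0514. The count of called members, 1 of 5, became 2 of 10 with no filter on low counts, and 1 to 2 with 1 library left out. The called models of members, 1, became 0 where every library had to hold 10 counts or more, and stayed 1 without each library. Model shares within a gene could be tested for 0 members under the usual filter and for 6 with no filter, with 0 called. Of all genes, 504 calls became 254 with DESeq2, 221 with DESeq2 without independent filtering, 304 at 0.05, 252 with annotated models alone, 299 with a replicate block, and 194 to 1041 with 1 library left out. The other response genes, 9 calls, became 4 with DESeq2 with or without independent filtering, and 2 to 14 with 1 library left out, from 2 without siControl 2 to 14 without siControl 3. Equal numbers in the column names did not deviate together (correlations 0.039, -0.136 and -0.0843), so the block rests on a shared number only; under it the HSPA5 adjusted p was 0.0318.

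Signs turned for genes near 0. With the length trend removed PDIA4 was at -0.08, ATF4 at -0.09, SARS1 at -0.16, RTCB at -0.14 and UFD1 at -0.07. With annotated models alone ATF4 and SARS1 were at -0.01. With DESeq2, with or without independent filtering, SARS1 and RTCB were at -0.01; with DESeq2 size factors in edgeR they were at -0.03 and -0.01, and with no filter SARS1 was at -0.0018. With 1 library left out PDIA4 ranged from -0.22 to 0.39, ATF4 from -0.17 to 0.17, SARS1 from -0.17 to 0.11, RTCB from -0.18 to 0.41, SSR4 from -0.04 to 0.10 and UFD1 from -0.05 to 0.29. The cause was not tested.

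Of the called list genes, SELENOS kept its call without each library. SERP1 lost it without siDelta2-4 2 (adjusted p = 0.111), SSR2 without siControl 2 (0.133), SIL1 without siControl 2 (0.102) or siDelta2-4 2 (0.136), MESD without siControl 2 (0.128), siDelta2-4 1 (0.128) or siDelta2-4 2 (0.186), and SHMT2 without siControl 2 (0.244), siDelta2-4 1 (0.158) or siDelta2-4 3 (0.108). Among these fits SLC3A2, EIF4EBP1 and FKBP2 passed only without siControl 3; they also failed with library totals alone (adjusted p of 0.113, 0.173 and 0.109), with no filter (0.176, 0.144 and 0.115) and under the block (0.137, 0.136 and 0.14), while PPIB passed with library totals alone (0.0142). DESeq2 without independent filtering also lost SLC3A2 (0.37), EIF4EBP1 (0.252), SHMT2 (0.168), SIL1 (0.164) and MESD (0.243). HSP90B1 passed without siControl 3 (2.02) and with no filter (0.91), and MTHFD2 without siControl 3 (0.62) or siDelta2-4 3 (0.77). Both HSP90B1 calls are partly fixed by what was kept through siDelta2-4, and with annotated models alone it was not called (0.90, adjusted p of 0.242). At this depth 5 of the 10 genes had too few reads to test.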
